A study of Mus musculus with 12 samples.

Results

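GABA-A receptors are chloride channels opened by the inhibitory transmitter GABA, and the 7 subunit genes described here were Gabra2, Gabra3, Gabra4, Gabra5, Gabra6, Gabrb2 and Gabrd. They were taken by symbol, and each matched 1 of the 24091 genes in the table of TPM, a transcript abundance corrected for transcript length and scaled to a fixed total in each sample. The 12 samples were bulk mouse tissue in 4 groups of 3. Medulloblastoma and adjacent cerebellum came from the same 3 Brca2-mut;Trp53-mut mice (GB344, GB359 and GB370), and tumor-free cerebella came from 3 Brca2-mut;Trp53-WT mice (GB361, GB508 and GB512) and 3 Brca2-WT;Trp53-mut mice (GB517, GB519 and GB520). The study's datasets give the control cerebella as postnatal day 90, and tumor-bearing mice were taken when they became ill. All 4 groups therefore carried at least 1 mutant gene, and a cerebellum wild type at both was not analysed here. The Brca2 deletion was made by an hGFAP-Cre transgene in the developing nervous system, whereas Trp53 was disrupted in the whole animal.

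Each GABA-A receptor is a ring of subunits, usually alpha and beta subunits with a gamma or a delta subunit, and the alpha subunit sets where the receptor sits and how it responds. Cerebellar granule cells start from progenitors that express early alpha subunits such as alpha2 and alpha3, and as they mature they switch on alpha6. The alpha6 subunit, encoded by Gabra6, is nearly restricted to granule cells and pairs with delta, encoded by Gabrd, in receptors outside synapses that carry a steady inhibition. Sonic Hedgehog medulloblastoma is thought to arise from granule cell progenitors.

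The subunit genes lie in clusters, and the position of each member was read from RefSeq on GRCm38.p6, the build of the deposited data (mm10). Gabra6 (chr11:42306437-42321072) and Gabrb2 (chr11:42419515-42632591) share a cluster. Gabra2 (chr5:70958392-71095849) and Gabra4 (chr5:71569734-71658308) share a second one with Gabrg1 and Gabrb1. Gabra5 (chr7:57407669-57591016) lies near Gabrg3, Gabra3 (chrX:72432676-72656919) beside Gabre and Gabrq, and Gabrd (chr4:155384979-155398098) apart from these. RefSeq promoter windows, 250 bases before to 50 after a start site, matched 6 of the 7 members. The bases upstream of Gabra6 (chr11:42321073-42321322, minus strand) and Gabra2 (chr5:71095850-71096099, minus strand) are shown 5′ to 3′ because one is the defining late subunit and the other an early one. Capitals mark the half-site of the nuclear factor I family, TTGGC on either strand, a family known to act in granule cell maturation.
Gabra6: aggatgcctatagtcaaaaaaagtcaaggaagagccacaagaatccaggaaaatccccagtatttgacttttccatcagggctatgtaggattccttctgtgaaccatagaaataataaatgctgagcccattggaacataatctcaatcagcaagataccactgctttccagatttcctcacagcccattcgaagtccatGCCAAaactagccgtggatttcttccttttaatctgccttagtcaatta
Gabra2: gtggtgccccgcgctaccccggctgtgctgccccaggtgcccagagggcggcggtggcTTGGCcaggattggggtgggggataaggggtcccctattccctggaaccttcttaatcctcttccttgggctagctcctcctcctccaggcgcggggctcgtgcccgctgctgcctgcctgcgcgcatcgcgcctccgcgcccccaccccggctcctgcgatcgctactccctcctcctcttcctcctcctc
The windows differed in base composition. G and C made up 42.0% of the Gabra6 window, which held 2 CpG dinucleotides, and 70.0% of the Gabra2 window, which held 25. The median over 32851 promoter windows was 52.7% with 7 CpG. Each of these windows held 1 half-site, and 46.7% of all windows of that length held at least 1, so the match does not set them apart. No methylation or binding was measured.

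The 12 columns summed to between 999793 and 999876 TPM, and between 15088 and 15803 genes reached 1 TPM in a sample. Read depth is unknown, and the only measure of precision is how far samples of a group differ. Brca2 ranged from 8.22 to 14.6 TPM in the tumors and from 3.24 to 6.98 TPM in the 9 cerebella. Trp53 averaged 48.6 ± 1.30 TPM (SD, n = 3) in cerebella labelled Brca2-WT;Trp53-mut and 34.8 ± 2.10 TPM (SD, n = 3) in those labelled Brca2-mut;Trp53-WT. Gene totals do not resolve the deleted exons, so neither gene checks the labels. Granule neuron markers (Cbln3, Cbln1, Slc17a7, Grin2c and Kcnd2) summed to between 1627 and 2611 TPM in the 9 cerebella and to between 102 and 355 TPM in the tumors. Progenitor and cycling markers (Atoh1, Gli1, Sfrp1, Mki67 and Top2a) summed to between 741 and 1508 TPM in the tumors and to between 22.0 and 34.6 TPM in the control cerebella. The adjacent cerebella of GB344 and GB359 held 399.6 and 339 TPM of these progenitor markers, and that of GB370 held 52.0. In the control cerebella, choroid plexus markers summed to between 3960 and 5179 TPM in the Brca2-WT;Trp53-mut group and to between 19.2 and 876 TPM in the other genotype.

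In tumor-free cerebellum the late subunits were the abundant ones. Over the 6 control cerebella, Gabra6 averaged 586 ± 57.8 TPM, Gabrd 220.2 ± 34.5 TPM and Gabrb2 122 ± 12.7 TPM (SD, n = 6). Gabra4 followed at 16.6 ± 1.97 TPM, then Gabra2 at 12.3 ± 3.61 TPM, Gabra3 at 10.1 ± 2.15 TPM and Gabra5 at 1.39 ± 0.809 TPM (SD, n = 6). The ranges of the late 3 did not overlap each other or those of the rest. Gabra4 and Gabra2, and Gabra2 and Gabra3, were neighbours closer than their summed SDs. In the tumors the order began the same way, with Gabra6 at 19.2 ± 9.87 TPM, Gabrd at 10.4 ± 5.27 TPM and Gabrb2 at 5.80 ± 1.80 TPM (SD, n = 3), but every neighbouring pair from Gabra6 down to Gabra2 overlapped in range.

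**Figure D1:**
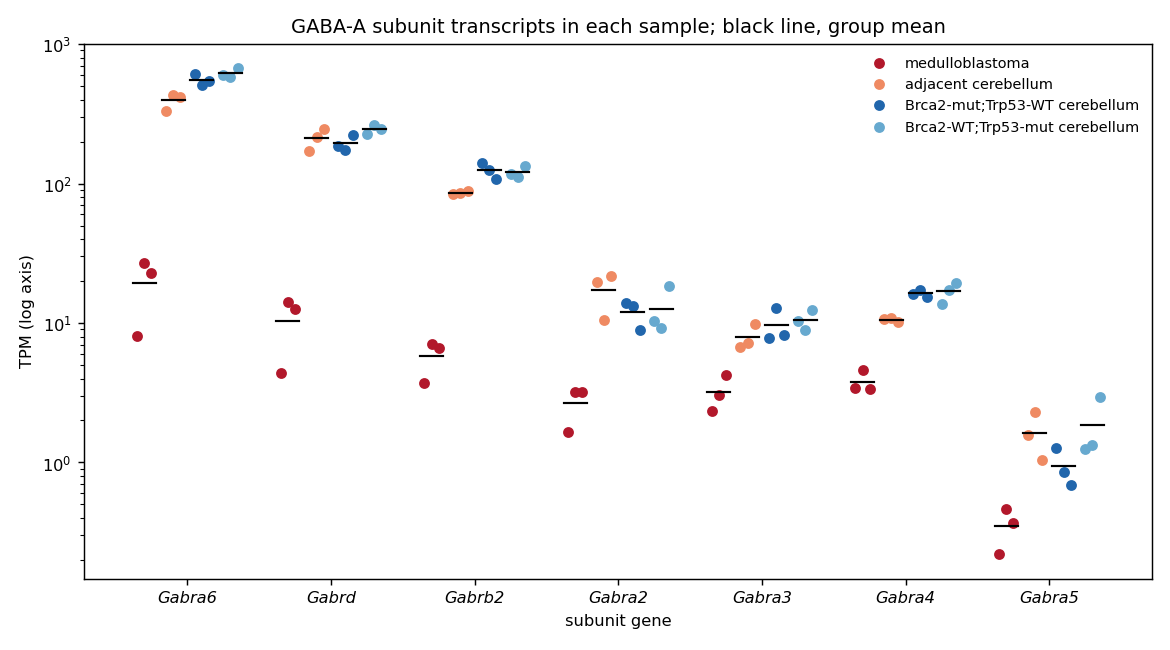
TPM of the 7 subunit genes in each of 12 samples on a log axis, with 1 point per sample, colours for the 4 groups and black lines for group means. The 3 tumors lie below all 9 cerebella for every gene shown, and the gap is widest for Gabra6, Gabrd and Gabrb2. The share of all genes separated in this way was not counted.

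Late subunits first. In the tumors of GB344, GB359 and GB370, Gabra6 stood at 8.11, 26.9 and 22.7 TPM, against 331, 433 and 418 TPM in the adjacent cerebella of the same mice. It was 611, 505 and 541 TPM in the Brca2-mut;Trp53-WT cerebella and 604, 584 and 670.4 TPM in the Brca2-WT;Trp53-mut cerebella. Every tumor was below every cerebellum, and every adjacent sample was below every control. On the log2(TPM + 1) scale, on which all differences below are given, Gabra6 fell by 5.01 in the tumors against the controls (SE 0.29, adjusted p = 1.29e-07, limma), a 30.5-fold lower mean TPM. Against the adjacent cerebella it fell by 4.43 (SE 0.41, adjusted p = 0.000337, limma).

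Gabrd, whose delta subunit partners alpha6 outside synapses, was 4.36, 14.1 and 12.6 TPM in the tumors, in the same order of mice, and 172, 216 and 245 TPM in their adjacent cerebella. The controls spanned 174 to 265 TPM with a median of 224 TPM, a range that the adjacent samples overlapped. Gabrd fell by 4.40 against the controls (SE 0.29, adjusted p = 3.09e-07, limma) and fell by 4.34 against the adjacent cerebella (SE 0.39, adjusted p = 0.000327, limma). Gabrb2, which encodes a beta subunit, was 3.74, 7.04 and 6.63 TPM in the tumors and 84.2, 85.6 and 88.8 TPM in the adjacent cerebella. The controls spanned 108 to 139.7 TPM with a median of 121 TPM, above all adjacent samples. Gabrb2 fell by 4.21 against the controls (SE 0.16, adjusted p = 1.80e-08, limma) and fell by 3.72 against the adjacent cerebella (SE 0.22, adjusted p = 0.000186, limma).

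The early subunits were also lower in the tumors. Gabra2 was 1.65, 3.18 and 3.20 TPM in the tumors and 19.6, 10.5 and 21.8 TPM in their adjacent cerebella. The controls spanned 8.93 to 18.3 TPM with a median of 11.8 TPM, so the adjacent samples reached above them. Gabra2 fell by 1.85 against the controls (SE 0.24, adjusted p = 5.26e-05, limma) and fell by 2.28 against the adjacent cerebella (SE 0.33, adjusted p = 0.00175, limma). Gabra3 was 2.32, 3.07 and 4.23 TPM in the tumors, 6.69, 7.18 and 9.76 TPM in the adjacent cerebella and 7.76 to 12.8 TPM in the controls, with a median of 9.58 TPM. It fell by 1.39 against the controls (SE 0.20, adjusted p = 9.17e-05, limma) and fell by 1.09 against the adjacent cerebella (SE 0.24, adjusted p = 0.00967, limma). The call for Gabra3 against adjacent cerebellum lay at the threshold, and it was lost under 12 of 16 other settings.

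Gabra4 and Gabra5 encode alpha subunits best known from the forebrain. Gabra4 was 3.45, 4.60 and 3.36 TPM in the tumors, 10.7, 10.9 and 10.1 TPM in the adjacent cerebella and 13.8 to 19.5 TPM in the controls, with a median of 16.8 TPM, and the 3 sets did not overlap. It fell by 1.87 against the controls (SE 0.13, adjusted p = 5.26e-07, limma) and fell by 1.28 against the adjacent cerebella (SE 0.18, adjusted p = 0.00156, limma). The latter call was lost with quantile normalization (-0.90, under the fold minimum) and without the adjacent sample of GB359 (adjusted p = 0.0102, limma), and it was kept under the other 14 of 16 settings. Gabra5 was 0.219, 0.461 and 0.368 TPM in the tumors, 1.58, 2.30 and 1.04 TPM in the adjacent cerebella and 0.689 to 2.96 TPM in the controls, with a median of 1.27 TPM. Its differences of -0.77 (SE 0.24, adjusted p = 0.0149, limma) and -0.94 (SE 0.21, adjusted p = 0.0107, limma) did not pass. At these levels the added 1 TPM shrinks the difference, and with 0.01 TPM added in its place the difference from the controls was -1.87 and passed (adjusted p = 0.00565, limma). With the same 0.01 TPM the difference from the adjacent cerebella was -2.19 and did not pass.

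A gene was called at an adjusted p under 0.01 and a difference of at least 1. By that rule 6 of 7 members fell in the tumors against the controls and none rose, where 21.5% of the 16241 genes tested fell. The median of the 7 was -1.87 and that of all genes -0.11. Against adjacent cerebellum 6 of 7 fell, where 18.0% of 15845 genes did, with medians of -2.28 and -0.14. Both comparisons use the same tumors. In a bulk sample, fewer granule neurons and less transcript per cell cannot be told apart. All 5 granule neuron markers fell in the tumors, with differences from the controls of -4.64 to -2.62. All 4 Purkinje, 4 inhibitory interneuron, 3 unipolar brush cell and 4 oligodendrocyte markers and 5 of 6 astrocyte markers fell too, and 1 of 5 choroid plexus markers. None of the 4 microglial and 2 endothelial markers passed, and of the forebrain markers only Neurod6 could be tested, with a difference of 2.60. Their part in the fall of the subunits was not tested.

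**Figure D2:**
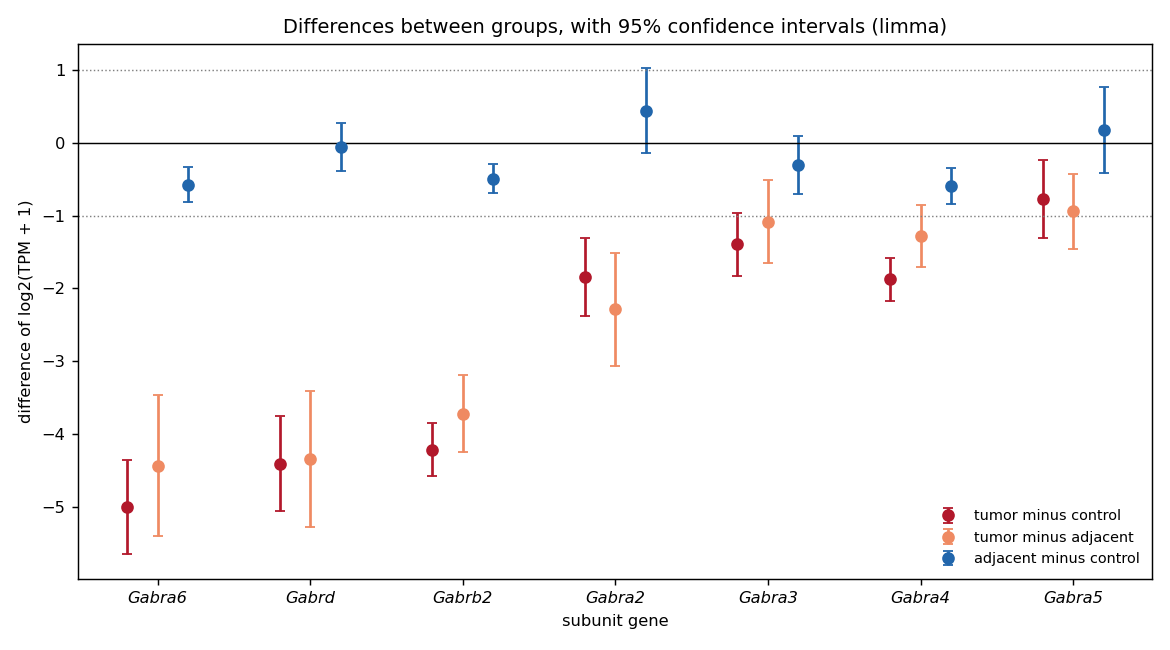
Differences of log2(TPM + 1) for the 7 members in 3 comparisons, with 95% confidence intervals from limma and dotted lines at the fold minimum of 1. Tumor differences for Gabra6, Gabrd and Gabrb2 lie between -3.72 and -5.01, and those for the other members between -0.77 and -2.28.

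Early and late subunits were set side by side to ask whether their balance differed. The 95% interval of the difference from the controls ran from -5.65 to -4.36 for Gabra6 and from -2.38 to -1.31 for Gabra2. The ratio of Gabra6 to Gabra2 TPM was 4.92, 8.47 and 7.07 in the tumors of GB344, GB359 and GB370, 16.9, 41.4 and 19.2 in their adjacent cerebella and between 36.6 and 63.9 in the controls. The ratio of Gabra6 to Gabra3 was 3.49, 8.77 and 5.36 in the tumors and between 39.3 and 78.8 in the 6 controls. Both ratios were lower in every tumor than in every cerebellum. They are described without a test, since the members were chosen with the data known. Which cells held each transcript was not measured, so the ratios can mix cell types.

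The make-up of the alpha transcripts among the members was described as each gene's percent of the summed TPM of Gabra2 to Gabra6, a sum chosen after the values were seen. That sum was 29.3 ± 11.9 TPM in the tumors (SD, n = 3), 431 ± 53.9 TPM in the adjacent cerebella (SD, n = 3) and 627 ± 61.4 TPM in the controls (SD, n = 6). Gabra2 and Gabra3 together made up 25.2%, 16.3% and 22.0% of it in the tumors of GB344, GB359 and GB370. They made up between 3.80% and 7.11% in the adjacent cerebella and between 2.90% and 4.76% in the controls. Gabra4 had a share of 2.66% ± 0.333 in the controls (SD, n = 6) and 14.6% ± 6.38 in the tumors (SD, n = 3). Gabra6 was the largest of these shares in every sample, at 63.0% ± 10.1 in the tumors (SD, n = 3) and 93.6% ± 1.02 in the controls (SD, n = 6). The TPM of Gabra2, Gabra3, Gabra4 and Gabra5 were nevertheless lower in every tumor than in every cerebellum. Purkinje markers summed to 29.8, 143 and 204 TPM in the same tumors and to 3303 to 5649 TPM in the controls. The shares are those of bulk tissue, and the part of admixed cerebellum in them was not tested.

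**Figure D3:**
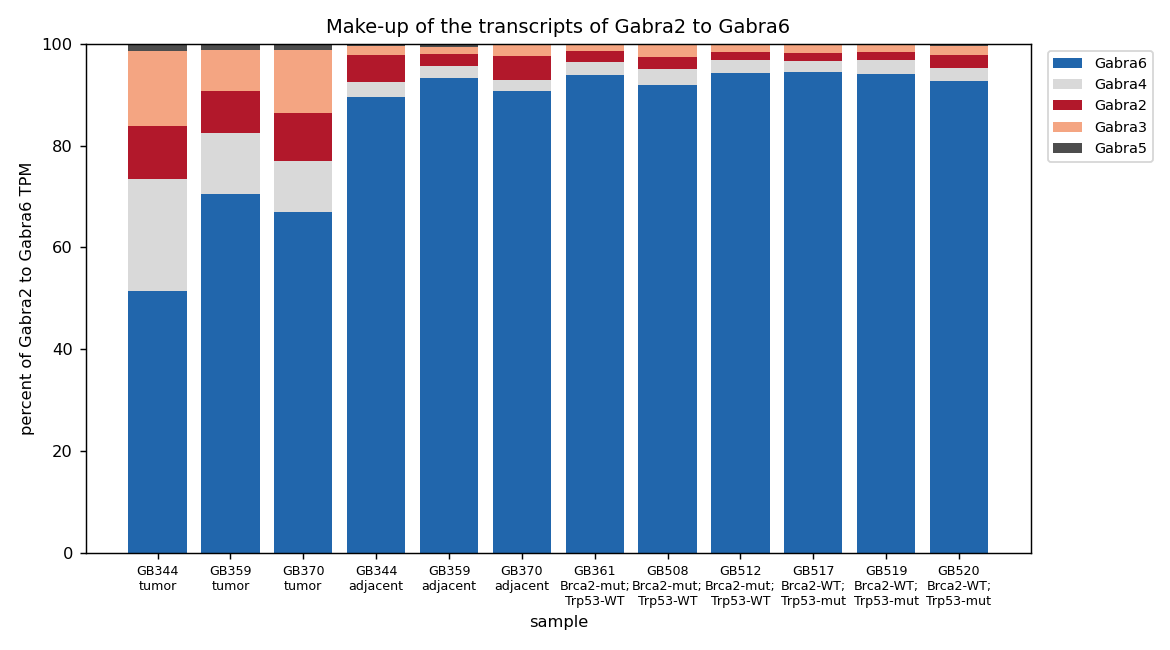
Stacked bars, 1 per sample and each summing to 100%, give the percent of Gabra2 to Gabra6 TPM taken by each gene. Gabra2 to Gabra5 together take between 29.6% and 48.5% of the bar in the 3 tumors and between 5.57% and 10.4% in the 9 cerebella.

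Among other genes of the receptor family, Gabrb1 and Gabrg1, the neighbours of Gabra2 and Gabra4 on chromosome 5, were tested against the controls. Gabrb1 fell by 3.02 and Gabrg1 fell by 2.09, so that the genes of that cluster differed by -3.02 to -1.85. Gabrg3, Gabrr2 and Gabre differed by -0.70, -0.94 and -0.16 and did not pass. Gabrp, Gabrq, Gabrr1 and Gabrr3 were too low to test.

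Chloride transporters set whether opening a GABA-A receptor inhibits or excites a cell. Slc12a5, the exporter KCC2 of mature neurons, was 3.19, 13.5 and 13.7 TPM in the tumors and 271 to 301 TPM in the controls, and it fell by 4.90 (SE 0.34, adjusted p = 4.03e-07, limma). Against the adjacent cerebella it fell by 4.80 (SE 0.48, adjusted p = 0.000459, limma). Slc12a2, the importer NKCC1, was 29.0, 37.9 and 20.7 TPM in the tumors and 52.5 to 80.2 TPM in the controls, and it fell by 1.17 (SE 0.20, adjusted p = 0.000319, limma). The control genotypes did not overlap, at 52.5 to 62.9 TPM in Brca2-mut;Trp53-WT and 71.0 to 80.2 TPM in Brca2-WT;Trp53-mut cerebella. Choroid plexus markers were also higher in the latter, and their part in the level of Slc12a2 was not tested. In the adjacent cerebella Slc12a2 was 58.4, 55.5 and 56.5 TPM, and the tumor difference from them of -0.98 (SE 0.21, adjusted p = 0.00962, limma) was under the fold minimum and did not pass. The exporter exceeded the importer in every cerebellum, with ratios of 3.50 to 5.82, and lay below it in every tumor, with ratios of 0.110, 0.358 and 0.661. The cells that held either transcript were not identified, so these ratios too can mix cell types. Among genes for assembly and anchoring, Gabarapl2 fell by 1.53. Gphn, which encodes the scaffold gephyrin, differed by -0.61 and did not pass. Both subunits of the metabotropic GABA-B receptor passed: Gabbr1 fell by 2.40 and Gabbr2 fell by 4.03.

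The cerebellum beside the tumors was compared with the tumor-free cerebella to see whether it held adult subunit levels. No member passed by limma, where 0.236% of 16091 genes did, and 5551 genes had an unadjusted p under 0.05. Gabra6 differed by -0.58 (SE 0.11, adjusted p = 0.0156, limma), Gabra4 by -0.60 (SE 0.11, adjusted p = 0.0139, limma) and Gabrb2 by -0.49 (SE 0.09, adjusted p = 0.0132, limma). For these 3 every adjacent sample lay below every control, and the share of all genes separated in this way was not counted. Gabrd differed by -0.06 with a 95% interval of -0.39 to 0.27, and its groups overlapped. Gabra2 differed by 0.44 (SE 0.26, adjusted p = 0.26, limma) and its groups overlapped too. The summed progenitor markers given above lay above all 6 controls in the 3 adjacent cerebella. Atoh1, Gli1 and Sfrp1 each did so. Mki67 and Top2a did not, at 2.72 and 5.53 TPM beside the tumor of GB370 against 5.63 and 8.42 TPM in the control GB512. Summed granule neuron markers overlapped, at 1627 to 2337 TPM against 1972 to 2611 TPM. Among them Kcnd2 lay below every control, at 70.8 to 105 TPM against 110 to 155 TPM, and Cbln3, Cbln1, Slc17a7 and Grin2c overlapped. Astrocyte markers summed to 1355 to 1497 TPM in the adjacent cerebella and 1518 to 1896 TPM in the controls, without overlap. Slc1a3, Hopx and Aqp4 lay below every control, and Gdf10 and Aldh1l1 overlapped. Gfap went the other way without overlap, at 213 to 314 TPM in the adjacent cerebella and 117 to 181 TPM in the controls. Forebrain markers were low in both but did not overlap either, at 10.4 to 18.8 TPM against 5.997 to 9.28 TPM. Oligodendrocyte markers summed to 1463 and 1811 TPM in the adjacent cerebella of GB344 and GB370, below the control range of 3024 to 4745 TPM, and to 4215 TPM in that of GB359. The Purkinje sums overlapped, at 2772 to 3428 TPM against 3303 to 5649 TPM. Median differences were -0.87 for the 4 oligodendrocyte, -0.41 for the 4 Purkinje and -0.26 for the 6 astrocyte markers, and none of these 3 lists held a called gene. The part of any of these markers in the subunit differences was not tested.

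Between the control genotypes no member passed by limma, where 0.0578% of 15575 genes did, and 3123 genes had an unadjusted p under 0.05. Gabrd was 187, 174 and 223 TPM in the Brca2-mut;Trp53-WT cerebella and 226, 265 and 247 TPM in the Brca2-WT;Trp53-mut cerebella. These groups did not overlap, but the difference of -0.34 (SE 0.10, adjusted p = 0.15, limma) did not pass. Gabra6 differed by -0.17, with a 95% interval of -0.37 to 0.04. The other 5 members differed by -0.52 to 0.04 and overlapped. Summed granule neuron markers lay lower in the same genotype as Gabrd, at 1972 to 2241 TPM in the Brca2-mut;Trp53-WT cerebella and 2284 to 2611 TPM in the Brca2-WT;Trp53-mut cerebella. Purkinje markers lay higher in the first genotype, at 4588 to 5649 TPM against 3303 to 3572 TPM. Summed astrocyte markers did so at 1631 to 1896 TPM against 1518 to 1592 TPM, and summed progenitor markers at 26.0 to 34.6 TPM against 22.0 to 24.3 TPM. Of the astrocyte markers, Gdf10, Hopx and Slc1a3 lay higher in the first genotype, and Gfap, Aqp4 and Aldh1l1 overlapped. The progenitor markers did not move together. Gli1 lay higher in the first genotype, at 17.6 to 21.4 TPM against 15.2 to 17.4 TPM. Sfrp1 lay lower, at 2.93 to 5.36 TPM against 5.98 to 6.45 TPM. Mki67 and Top2a stood out only in GB512, at 5.63 and 8.42 TPM, and Atoh1 reached at most 0.212 TPM. The choroid plexus markers given above also separated the genotypes, and the other marker sums overlapped. Their part in the difference of Gabrd was not tested.

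The genes whose pattern over the 12 samples was most like each member were found by Pearson's r of log2(TPM + 1) among 16498 genes. For Gabra6 they were Dnm3 (r = 0.999), Tppp (r = 0.999) and Negr1 (r = 0.999). For Gabrd they were Ablim1, Kcnc1 and Syne1 (r = 0.999, 0.998 and 0.998), and for Gabrb2 they included Hecw1 and Slc35g2 (r = 0.999 and 0.998). Gabra4 was most like Ncam2, Scn9a and Fam126b (r = 0.997, 0.994 and 0.993). Gabra2 was most like Sgcb, Tcp11l1 and Atp13a4 (r = 0.976, 0.976 and 0.964), and Gabra3 most like Masp1, Lypd6 and Gm19461 (r = 0.979, 0.976 and 0.974). Gabra5 was most like Cdh6, Nox4 and Hsbp1l1 (r = 0.954, 0.927 and 0.923). The points share the split of tumors from cerebella. Among the members, Gabra6 and Gabrb2 had r = 0.995, and Gabra6 and Gabra2 had r = 0.893.

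Over the 9 cerebella without the tumors the correlations of Gabra6 with other members were lower. Gabra6 and Gabrb2 had r = 0.875, Gabra6 and Gabra4 r = 0.837, Gabra6 and Gabrd r = 0.428, and Gabra6 and Gabra2 r = -0.407. The 9 samples hold both adjacent and control cerebella, and Gabra6, Gabrb2 and Gabra4 were each lower in every adjacent sample than in every control. The part of that split in these correlations was not tested. Of the genes most like each member, Dnm3 for Gabra6, Ncam2 for Gabra4 and Lypd6 for Gabra3 stood among the nearest 3 in both sets of samples. For Gabrd the nearest became Chadl, Amph and Plch2 (r = 0.966, 0.966 and 0.955), and for Gabra2 Casc4, Rab9 and Zxda (r = 0.971, 0.915 and 0.900). Those of Gabra3 were Tfap2b, Lypd6 and Kit (r = 0.949, 0.944 and 0.941), and Kit was among the inhibitory interneuron markers. No gene was shared with the 12-sample list for Gabrd, Gabra2, Gabra5 or Gabrb2.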

How the data were processed

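Poly(A) RNA of 12 mouse samples was sequenced with 75 bp reads. The authors quantified transcripts with Salmon 0.8.1 and summed them to genes with tximport 1.20, using TxDb.Mmusculus.UCSC.mm10.knownGene 3.4.0, and deposited TPM for 24091 genes. No filter is stated, and 2603 genes were at 0 in every sample. The study's test on counts was not run, since the values here are TPM. TPM are shares of a sample, so a large rise of some genes lowers the rest.

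Here log2(TPM + 1) was tested with limma 3.58.1 (lmFit, eBayes with trend) in R 4.3.3 over genes that reached 1 TPM in 3 or more of the samples compared, each fit holding only the groups compared, with Benjamini-Hochberg adjustment over all genes tested. Calls needed an adjusted p under 0.01 and an absolute difference of at least 1. The model was tested on simulated data. Samples were grouped by the labels. The text names all 7 members, genes of the receptor family, assembly, chloride transport and GABA-B lists, and up to 3 genes most like each member. Some genes of these lists are not reported here, so no counts over the first 2 lists are given. Members and lists were chosen with earlier results of these data known. Tumor and adjacent samples share a mouse, and their deviations from the group means correlated at 0.228, 0.148 and 0.148 within a mouse. Identifiers matched RefSeq (GRCm38.p6) for 24045 genes. Pseudocounts, filters, scaling, moderation, thresholds, left-out samples, control genotype and a mouse block were varied. 0 sample columns were left unused.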

Additional observations from a re-analysis of the deposited data

Results flagged for a closer look

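Gabra5 in the Brca2-WT;Trp53-mut cerebellum of GB520 stood at 2.96 TPM, far from the other 5 control cerebella, which lay between 0.689 and 1.34 TPM. For a single gene such a gap is expected by chance in about 1 in 20 groups of samples. All 7 members were screened for gaps at either end, so a gap in any of them is expected more often.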

How the results depend on the processing

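Against the control cerebella, the differences of the 6 members that fell in the tumors kept their direction and their call under every alternative run, and Gabra5 passed under 4 of 18. Against adjacent cerebellum, Gabra5 passed under 2 of 15 (without the adjacent sample of GB370, at -1.12, and with no fold minimum at an adjusted p under 0.05), and Gabra6, Gabrd, Gabrb2 and Gabra2 kept their direction and call. Gabra3 lost its call under 12 of 16, including each left-out sample, and Gabra4 lost its call with quantile normalization and without the adjacent sample of GB359 (adjusted p = 0.0102, limma). The cause was not tested. With the mouse as a replicate block, 3542 genes were called in place of 3607, 6 members fell as before, and the block changed no member's call. Median-of-ratios scaling moved the median of all genes in that comparison from -0.14 to 0.02, and the calls from 755 higher and 2852 lower to 1296 and 2476, and quantile normalization gave a median of 0.14 with 1648 and 2136. With an adjusted p under 0.05 and no fold minimum, 11573 genes were called in tumor against control, 7980 in tumor against adjacent cerebellum, 2524 in adjacent against control and 71 between control genotypes, and 3 members (Gabra6, Gabra4 and Gabrb2) were then lower in adjacent cerebellum. Leaving out 1 sample gave 2377 to 3482 calls for tumor against adjacent cerebellum, the lowest without the adjacent sample of GB359. For adjacent against control, 38 genes were called, and 0 to 586 without 1 sample, the highest without the adjacent sample of GB370 and the lowest without GB520. This count was 4 with no filter or with the Brca2-mut;Trp53-WT controls alone, 10 without the trend, 58 with median-of-ratios scaling and 59 with quantile normalization. Between control genotypes, 9 genes were called, and 4 to 29 without 1 sample, the highest without GB361. This count was 2 with 0.01 TPM added, 3 with no filter, a filter of 5 TPM, quantile normalization or no trend, 4 with median-of-ratios scaling and 21 with all 4 groups in 1 fit. TPM carry no read counts, so counting error at levels such as that of Gabra5 is unknown.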
